A study of Mus musculus with 24 samples.

Results

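The collagen chain genes are the genes whose symbol is Col, a type number, the letter a and a chain number. They were taken from probe sets annotated to 1 gene, with the brightest probe set standing for each gene, and 42 of the 18193 genes measured met this rule. The RefSeq gene table lists 44 such protein-coding genes, and Col6a6 and Col28a1 were not analysed here. No filter on low values was applied, so all 42 members entered the test. Mouse lung RNA was hybridised to 24 Affymetrix mouse expression arrays. There were 4 L858R, 5 L858R+T790M and 5 T790M tumours, which are visible nodules dissected from bitransgenic mice that the labels write as C/L858R, C/L+T and C/T790M. L858R and T790M are changes in the kinase domain of the epidermal growth factor receptor. The mice had eaten a doxycycline diet for 3 to 6 months. The 10 normal lungs came from littermates on doxycycline with no transgene or with 1 transgene alone, and the labels do not say which. Of these, 5 carry the strain label FVB mixed (mixed-strain normals) and 5 the label FVB (FVB normals). The L858R tumours share the label FVB mixed, and the L858R+T790M and T790M tumours the label FVB. The labels give no promoter for the transgenes, no age, and no statement that each array is a separate mouse.

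Collagens are matrix proteins built from alpha chains that wind around each other in a triple helix. Each type has its own set of chains, so the members of a type are partners in 1 protein. Fibrillar collagens I, III and V form the tensile fibres of lung interstitium, and collagen IV forms the sheet of every basement membrane, where the alveolar wall carries the Col4a3, Col4a4 and Col4a5 chains. Fibroblasts make most fibrillar collagen, while epithelial and endothelial cells also make basement membrane collagens.

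All values are log2 probe set summaries, differences are log2 differences ± SE of the tumours minus the normals of their strain label, and a gene was called when its Benjamini-Hochberg adjusted p over all 18193 genes was under 0.05 in a limma fit. Adjusted p-values below come from that fit unless another test is named. The L858R+T790M and T790M comparisons share the 5 FVB normals. Levels of different genes were read by different probes and are not compared.

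All 3 tumour groups had less signal from Col13a1 and Col17a1 of the membrane-bound collagens, Col4a6 of the basement membrane, Col6a2 of the microfibrils and Col8a2 of the vessel network, and more from the endostatin source Col18a1. Col5a3 of the fibrillar collagens was also called higher in all 3 tumour groups, but only at the brighter of its probe sets. Col15a1, the relative of Col18a1, was called higher in L858R+T790M and T790M tumours. Col13a1, Col17a1, Col8a2 and Col15a1 were each read by 1 probe set, so no other probe set could be compared. In L858R tumours 4 of 42 members (9.52%) were called higher and 15 (35.7%) lower than in mixed-strain normals, where 23.3% and 18.1% of all genes were called in those directions. In L858R+T790M tumours 5 members (11.9%) were higher and 7 (16.7%) lower than in FVB normals, beside 20.2% and 16.1% of all genes. In T790M tumours 4 (9.52%) were higher and 11 (26.2%) lower, beside 21.9% and 17.9% of all genes. The share of members called higher was thus below that of all genes in each comparison. The median member differed by -0.06 in L858R, 0.01 in L858R+T790M and -0.10 in T790M tumours, against 0.05, 0.03 and 0.00 over all genes. No member was called in opposite directions in different tumour groups, and 18 were called in none of the tumour-normal comparisons. All arrays lay above those of the normals for 3 members and below for 13 in L858R tumours, beside 19.8% and 16% of all genes. The same was seen for 4 members above and 6 below in L858R+T790M tumours (16.7% and 13% of all genes) and for 4 above and 8 below in T790M tumours (17% and 12.8%).

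**Figure D1:**
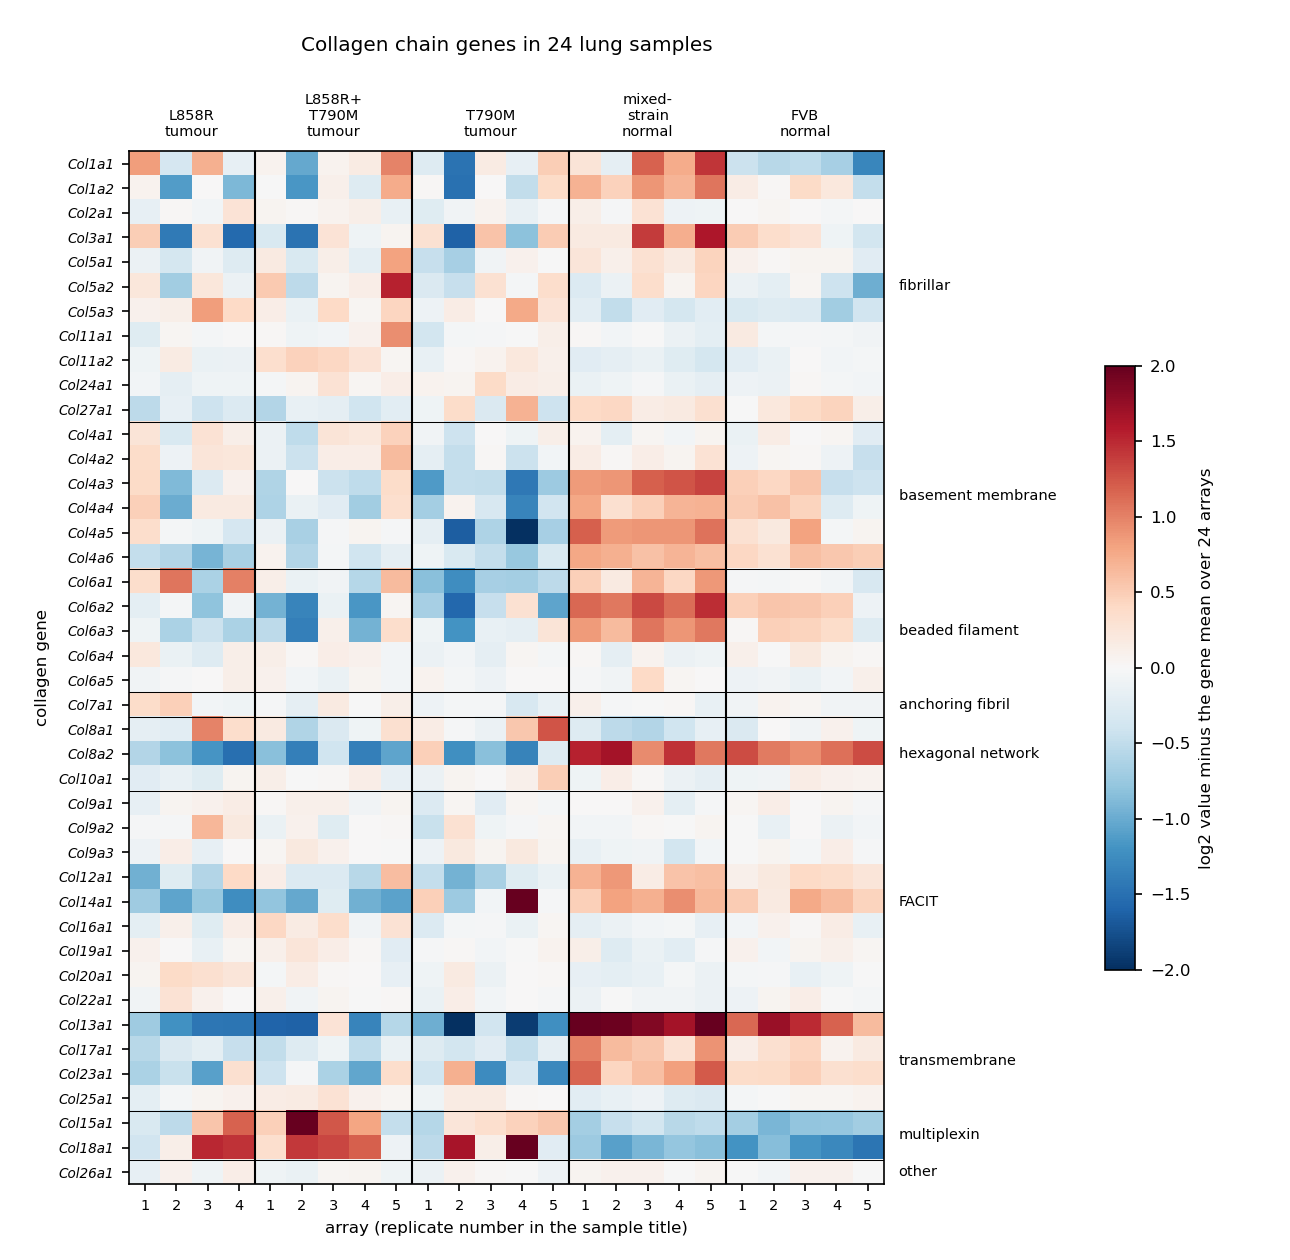
Log2 value of each of 42 collagen chain genes (rows, by collagen type) minus that gene's mean over 24 arrays, in every array (columns, by group), with colours that end at 2.0 and -2.0. Col13a1 and Col8a2 are red in normal lungs and mostly blue in tumours, Col18a1 is blue in normal lungs and mostly red in tumours, and many chains with low values hardly vary.

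Before the results, several facts on the arrays apply. On the first principal component of all genes (58.1% of the variance) T790M replicate 1 lay at -2.96, nearest to the normal lungs, with the other tumours at 12.6 to 59.5 and the normals at -55.2 to -43.2. Without it the T790M counts were again 4 higher and 11 lower. The lowest correlation between arrays of a group was 0.975 in L858R, 0.950 in L858R+T790M and 0.946 in T790M tumours, against 0.988 in mixed-strain and 0.987 in FVB normals. All 8 fibroblast markers were lower in each tumour group, with median differences of -2.43 in L858R, -2.12 in L858R+T790M and -2.05 in T790M tumours. Their summed linear signal was 6084 to 12091 in L858R, 4344 to 10919 in L858R+T790M and 2748 to 10907 in T790M tumours, against 34142 to 42656 in mixed-strain and 21353 to 31586 in FVB normals. Endothelial markers were lower for 7, 7 and 6 of 7 genes in L858R, L858R+T790M and T790M tumours, smooth muscle and pericyte markers for 7, 6 and 5 of 7, and alveolar type 1 markers for 5, 4 and 6 of 6. Alveolar type 2 markers were higher for 4, 4 and 3 of the 5 measured. The part of these markers in the collagen differences was not tested. In bulk RNA, fewer cells of a type and less RNA per cell cannot be told apart.

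The transmembrane collagens, which sit in the cell membrane with the collagen part outside, held the largest fall. Of 4 members 3 were lower in L858R, 2 in L858R+T790M and 3 in T790M tumours, and none was higher. Col13a1, a transmembrane collagen that marks a class of matrix fibroblasts in mouse lung, was 6.98, 6.49, 6.25 and 6.23 in L858R tumours, 6.09, 6.08, 7.97, 6.38 and 7.13 in L858R+T790M tumours and 6.72, 5.69, 7.31, 5.79 and 6.47 in T790M tumours. It was 10.12, 9.66, 9.55, 9.36 and 9.74 in mixed-strain normals and 8.85, 9.42, 9.18, 8.87 and 8.33 in FVB normals. Every tumour lay below every normal lung. Col13a1 averaged 6.49 ± 0.35 in L858R tumours (SD, n = 4) and 9.69 ± 0.28 in mixed-strain normals (SD, n = 5), a difference of -3.20 ± 0.35 (adjusted p = 4.1e-07), while the differences from FVB normals were -2.20 ± 0.33 (adjusted p = 2.1e-05) in L858R+T790M and -2.53 ± 0.33 (adjusted p = 4.8e-06) in T790M tumours.

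Col17a1 is the hemidesmosome collagen that ties epithelial cells to the basement membrane. It was dim, at the 7.5th percentile of genes, with 4.40, 4.66, 4.76 and 4.49 in L858R tumours, 4.46, 4.70, 4.87, 4.44 and 4.82 in L858R+T790M tumours and 4.70, 4.59, 4.73, 4.48 and 4.77 in T790M tumours. Normal lungs gave 5.96, 5.58, 5.50, 5.24 and 5.86 in the mixed-strain set and 5.09, 5.27, 5.38, 5.03 and 5.13 in the FVB set. The tumours did not overlap the normals, and the differences were -1.05 ± 0.12 (adjusted p = 1.0e-06) in L858R, -0.52 ± 0.12 (adjusted p = 0.0013) in L858R+T790M and -0.53 ± 0.12 (adjusted p = 0.0011) in T790M tumours.

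Col23a1, another transmembrane collagen whose outer part can be shed, was 8.53, 8.72, 8.08 and 9.49 in L858R tumours, 8.75, 9.14, 8.53, 8.13 and 9.52 in L858R+T790M tumours and 8.77, 9.87, 7.91, 8.82 and 7.88 in T790M tumours. Mixed-strain normals gave 10.32, 9.60, 9.77, 9.99 and 10.39, and FVB normals 9.53, 9.54, 9.64, 9.49 and 9.51. The FVB normals spanned a narrow range that 1 tumour of each FVB group reached or passed. Col23a1 fell by 1.31 ± 0.34 in L858R (adjusted p = 0.0033) and by 0.89 ± 0.32 in T790M tumours (adjusted p = 0.028), and its difference in L858R+T790M tumours was -0.73 ± 0.32 (adjusted p = 0.078). The T790M call was lost without T790M replicate 3 (-0.71, adjusted p = 0.090) or 5 (-0.70, adjusted p = 0.089) or FVB normal replicate 3 (-0.87, adjusted p = 0.053), and the L858R+T790M difference was called without L858R+T790M replicate 5 (-0.90, adjusted p = 0.032). Col25a1, a transmembrane collagen known from nerve and brain, differed by 0.17 ± 0.07, 0.13 ± 0.07 and 0.03 ± 0.07 in L858R, L858R+T790M and T790M tumours and was not called.

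The multiplexins, basement membrane collagens whose tail fragments are the vessel-acting peptides endostatin and restin, had 1 of 2 members called higher in L858R tumours and both in L858R+T790M and T790M tumours. Col18a1 had the largest called rise of the 42 members in each tumour group. Col18a1, the source of endostatin, was 9.94, 10.45, 11.84 and 11.78 in L858R tumours, 10.67, 11.75, 11.66, 11.52 and 10.22 in L858R+T790M tumours and 9.80, 11.98, 10.44, 12.74 and 10.11 in T790M tumours. It was 9.61, 9.25, 9.41, 9.56 and 9.50 in mixed-strain normals and 9.14, 9.47, 9.15, 9.04 and 8.87 in FVB normals. All tumours exceeded the normals of their strain label, but the tumours were spread from 9.80 to 12.74, with L858R replicate 1 and T790M replicate 1 closest to normal. The differences were 1.54 ± 0.49 (adjusted p = 0.015) in L858R, 2.03 ± 0.46 (adjusted p = 0.0013) in L858R+T790M and 1.88 ± 0.46 (adjusted p = 0.0024) in T790M tumours. In L858R tumours the call was lost without replicate 3 (1.26, adjusted p = 0.063) or 4 (1.28, adjusted p = 0.059).

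Col15a1, which lies in the outer part of vessel and muscle basement membranes, was 7.98, 7.77, 8.84 and 9.46 in L858R tumours, 8.76, 10.76, 9.53, 9.08 and 7.81 in L858R+T790M tumours and 7.72, 8.53, 8.62, 8.75 and 8.83 in T790M tumours. Mixed-strain normals gave 7.60, 7.83, 7.92, 7.73 and 7.78, and FVB normals 7.60, 7.38, 7.50, 7.52 and 7.59. Every L858R+T790M and T790M tumour was above the FVB normals, while L858R replicate 2 fell within the mixed-strain normals. Col15a1 rose by 1.67 ± 0.37 in L858R+T790M (adjusted p = 0.0011) and by 0.97 ± 0.37 in T790M tumours (adjusted p = 0.041), and its difference in L858R tumours was 0.74 ± 0.39 (adjusted p = 0.14). The T790M call was lost in 9 of 10 omissions of a single array (0.89 to 0.99, adjusted p 0.059 to 0.085). It was kept without T790M replicate 1, the lowest tumour (1.17).

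**Figure D2:**
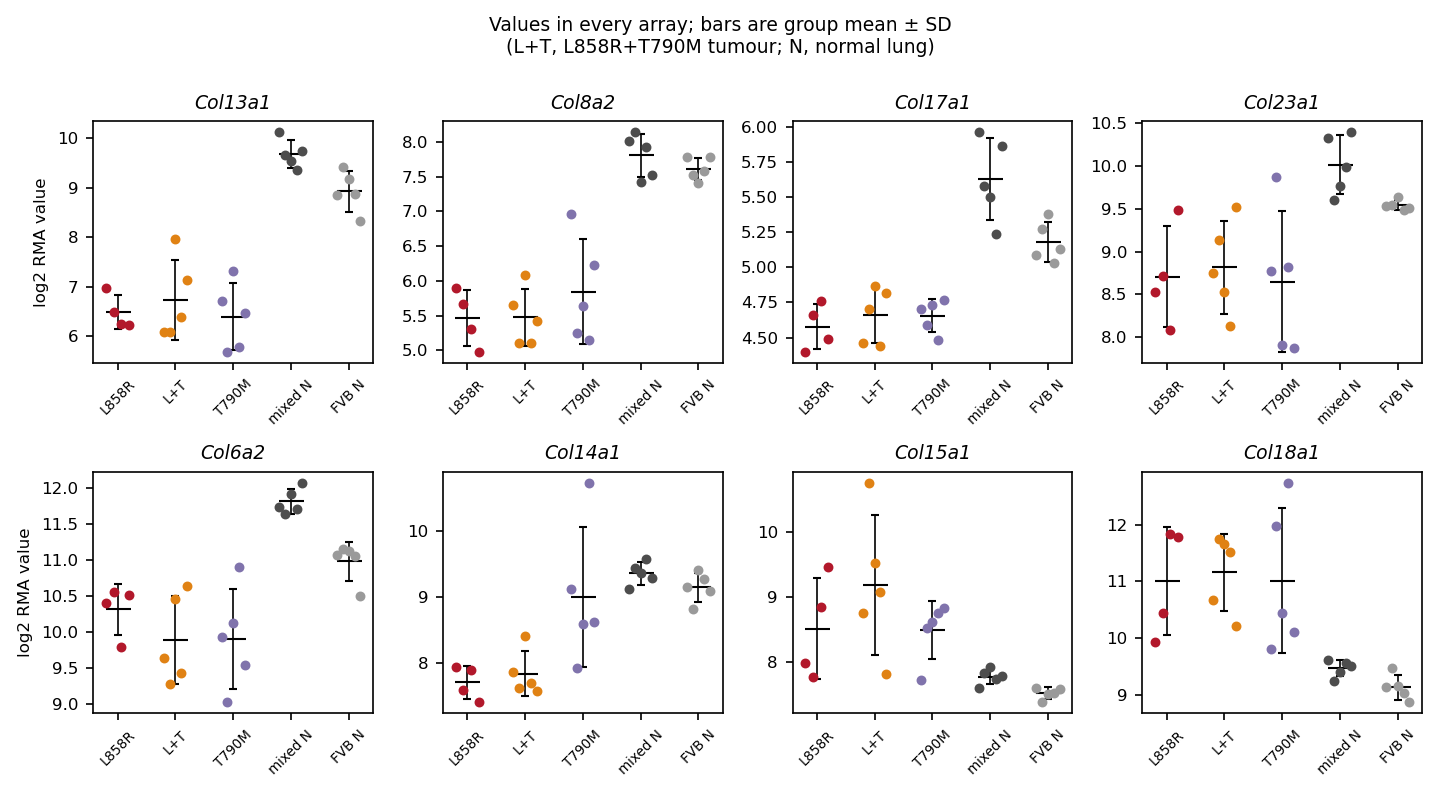
Log2 RMA value of 8 collagen chain genes in every array (points) of the L858R, L858R+T790M (L+T) and T790M tumours and the mixed-strain and FVB normal lungs (N), with group mean ± SD. Col13a1, Col8a2 and Col17a1 tumours sit below all normal lungs, Col18a1 tumours sit above the normals of their strain label, and T790M replicate 4 stands at 10.74 for Col14a1.

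The 250 bases before the annotated start of the 2 members that fell most and the 2 multiplexins are shown, from the RefSeq promoter table of build GRCm38.p6, because these genes carry the largest differences in either direction. Capitals mark the CCAAT box (spelled CCAAT), the TATA box (searched for as TATAAA) and the GC box (searched for as GGGCGG), each read on both strands, and matches may overlap. Col18a1 has more than 1 annotated start, and the probes do not tell which start was used.
Col13a1, chr10:61979109-61979358, minus strand: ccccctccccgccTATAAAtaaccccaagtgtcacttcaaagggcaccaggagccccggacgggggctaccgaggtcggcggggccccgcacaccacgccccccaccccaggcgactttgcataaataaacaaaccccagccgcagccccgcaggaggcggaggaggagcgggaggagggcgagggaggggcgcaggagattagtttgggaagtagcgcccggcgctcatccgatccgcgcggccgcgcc
Col8a2, chr4:126286544-126286793, plus strand: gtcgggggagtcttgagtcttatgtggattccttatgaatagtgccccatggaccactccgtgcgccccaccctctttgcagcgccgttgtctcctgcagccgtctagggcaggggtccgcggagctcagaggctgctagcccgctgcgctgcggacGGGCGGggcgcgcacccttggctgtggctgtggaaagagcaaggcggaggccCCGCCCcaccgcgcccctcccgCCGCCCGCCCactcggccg
Col15a1, chr4:47207762-47208011, plus strand: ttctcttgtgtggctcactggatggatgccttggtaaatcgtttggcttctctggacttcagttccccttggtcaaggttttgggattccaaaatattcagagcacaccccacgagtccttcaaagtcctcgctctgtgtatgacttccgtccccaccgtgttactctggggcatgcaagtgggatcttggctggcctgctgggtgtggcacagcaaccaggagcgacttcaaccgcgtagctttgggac
Col18a1, first start, chr10:77166531-77166780, minus strand: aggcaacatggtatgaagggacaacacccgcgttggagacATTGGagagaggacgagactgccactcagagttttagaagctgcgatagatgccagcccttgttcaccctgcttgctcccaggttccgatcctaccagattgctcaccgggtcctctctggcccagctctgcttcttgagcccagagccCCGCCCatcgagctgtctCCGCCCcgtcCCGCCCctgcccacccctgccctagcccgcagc
Col18a1, second start, chr10:77113706-77113955, minus strand: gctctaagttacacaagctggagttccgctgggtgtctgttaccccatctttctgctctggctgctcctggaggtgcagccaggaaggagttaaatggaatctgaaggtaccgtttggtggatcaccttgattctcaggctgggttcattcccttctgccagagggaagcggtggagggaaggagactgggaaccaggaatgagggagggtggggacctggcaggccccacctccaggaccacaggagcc
The Col13a1 window held 1 TATAAA match, 237 bases before the start, and no GC box. The Col8a2 window held 4 GC boxes, and the Col15a1 window none of the motifs. The first Col18a1 start had 3 GC boxes and 1 CCAAT box, and the second had none of the motifs. Col13a1 and Col8a2 thus shared none of the motifs searched. Windows were found for 33 of the 42 members, 36 windows in all. GGGCGG stood in 58.3% of the collagen windows against 32.7% of 32851 windows of all genes, CCAAT in 36.1% against 33.8%, and TATAAA in 13.9% against 12.4%. The 32851 windows are those of 27025 genes of the promoter table, which were not limited to the genes measured. The collagen windows had a median GC content of 59.0% against 52.4% over all windows. These matches describe the letters of the windows only.

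Among the 6 collagen IV chains 3 were called lower in L858R, 1 in L858R+T790M and 4 in T790M tumours, and none was called higher. Only Col4a6 was called lower in every tumour group. Col4a1 and Col4a2 form the collagen IV of all basement membranes. Col4a1 averaged 12.62 ± 0.28 in L858R tumours (SD, n = 4) and 12.51 ± 0.11 in mixed-strain normals (SD, n = 5). It averaged 12.59 ± 0.38 in L858R+T790M and 12.44 ± 0.20 in T790M tumours, against 12.50 ± 0.15 in FVB normals (SD, n = 5 each). Its differences were 0.11 ± 0.16, 0.09 ± 0.15 and -0.06 ± 0.15 in L858R, L858R+T790M and T790M tumours, and those of Col4a2 were 0.05 ± 0.16, 0.19 ± 0.15 and -0.10 ± 0.15. Both groups overlapped in each comparison.

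Col4a3, a chain of the alveolar and glomerular basement membrane and the target of Goodpasture antibodies, was 10.05, 8.78, 9.38 and 9.75 in L858R tumours, 9.06, 9.67, 9.23, 9.15 and 10.03 in L858R+T790M tumours and 8.52, 9.18, 9.17, 8.23 and 8.93 in T790M tumours. It was 10.51, 10.54, 10.85, 10.91 and 11.01 in mixed-strain normals and 10.14, 10.08, 10.21, 9.20 and 9.25 in FVB normals. The FVB normals fell into 3 higher and 2 lower arrays, and the L858R+T790M tumours overlapped them. Col4a3 fell by 1.27 ± 0.27 in L858R (adjusted p = 0.00068) and by 0.97 ± 0.26 in T790M tumours (adjusted p = 0.0044), with a difference of -0.35 ± 0.26 in L858R+T790M tumours (adjusted p = 0.32). Col4a4, its neighbour and partner, differed by -0.63 ± 0.28, -0.51 ± 0.26 and -0.77 ± 0.26, and was called in T790M tumours alone (adjusted p = 0.025). That T790M call was lost without T790M replicate 4 (-0.57, adjusted p = 0.088) or without FVB normal replicate 1, 2 or 3 (-0.71 to -0.68), and Col4a4 was called in L858R tumours without L858R replicate 1 (-0.80, adjusted p = 0.037).

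Col4a5, the partner of Col4a3 and Col4a4 in the alveolar network, was 10.10, 9.71, 9.66 and 9.42 in L858R tumours, 9.64, 9.11, 9.73, 9.81 and 9.72 in L858R+T790M tumours and 9.57, 8.11, 9.13, 7.50 and 9.09 in T790M tumours. Mixed-strain normals gave 10.95, 10.61, 10.64, 10.64 and 10.83, and FVB normals 10.05, 9.94, 10.56, 9.71 and 9.80. T790M replicates 2 and 4 were the lowest of all arrays. Col4a5 fell by 1.01 ± 0.29 in L858R (adjusted p = 0.0074) and by 1.33 ± 0.27 in T790M tumours (adjusted p = 0.00051), and its difference in L858R+T790M tumours was -0.41 ± 0.27 (adjusted p = 0.26). Against all 10 normal lungs as 1 group the L858R call was lost (-0.65, adjusted p = 0.068).

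Col4a6, a chain of smooth muscle and some epithelial basement membranes, was 7.26, 7.16, 6.82 and 7.10 in L858R tumours, 7.82, 7.15, 7.71, 7.35 and 7.56 in L858R+T790M tumours and 7.65, 7.44, 7.27, 6.99 and 7.44 in T790M tumours. It was 8.51, 8.45, 8.33, 8.43 and 8.34 in mixed-strain normals and 8.15, 8.04, 8.35, 8.28 and 8.23 in FVB normals. No tumour reached the normal range, and Col4a6 fell by 1.33 ± 0.13 in L858R (adjusted p = 9.5e-08), by 0.69 ± 0.12 in L858R+T790M (adjusted p = 0.00012) and by 0.85 ± 0.12 in T790M tumours (adjusted p = 1.3e-05).

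**Figure D3:**
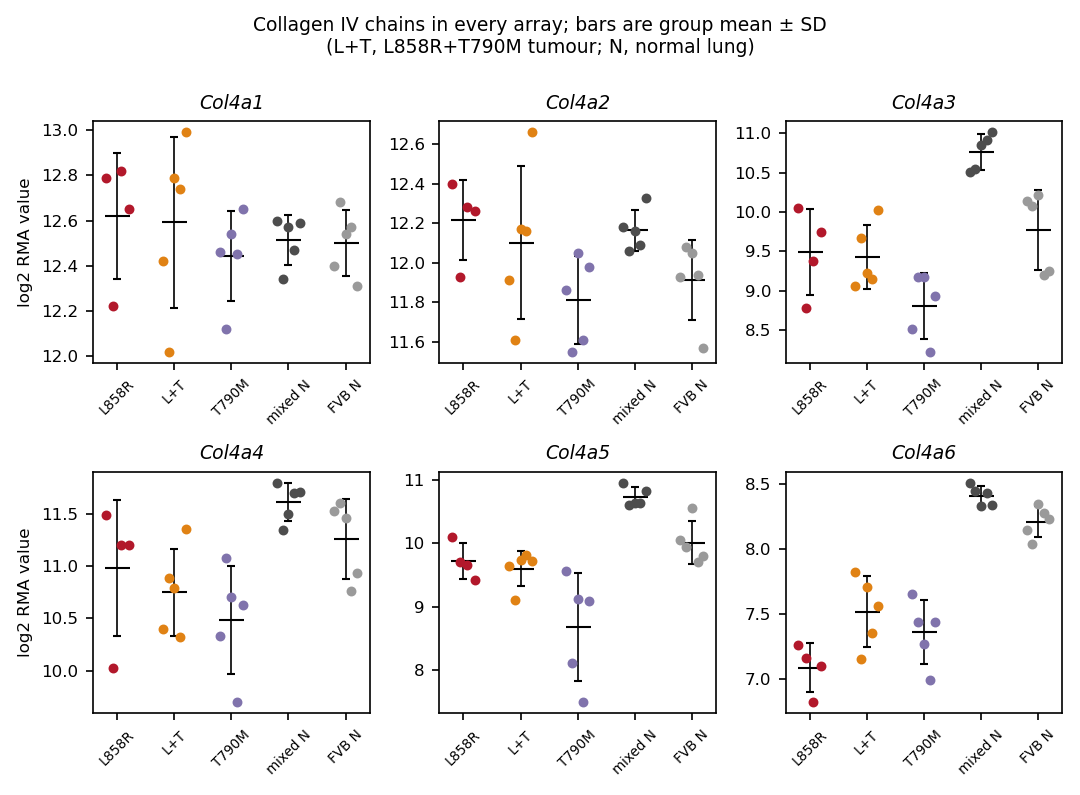
Log2 RMA value of the 6 collagen IV chains in every array (points), with group mean ± SD, in L858R, L858R+T790M (L+T) and T790M tumours and in mixed-strain and FVB normal lungs (N). Tumours and normals overlap for Col4a1 and Col4a2 and do not overlap for Col4a6, and mixed-strain normals sit above FVB normals for Col4a3 and Col4a5.

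The fibrillar collagens gave mixed results, with 1 of 11 members higher and 4 lower in L858R, 3 higher and 1 lower in L858R+T790M and 2 higher and 0 lower in T790M tumours. Col3a1, the collagen of reticular fibres, was 12.47, 10.55, 12.27 and 10.41 in L858R tumours, 11.66, 10.50, 12.24, 11.89 and 12.02 in L858R+T790M tumours and 12.27, 10.35, 12.54, 11.15 and 12.48 in T790M tumours. Mixed-strain normals gave 12.15, 12.15, 13.37, 12.70 and 13.59, and FVB normals 12.48, 12.33, 12.25, 11.89 and 11.60. Of the tumours 4 lay below 11 and the others largely within the range of the normals. Col3a1 was called lower in L858R tumours (-1.37 ± 0.49, adjusted p = 0.029). Omitting replicate 2 (-1.08) or 4 (-1.03) of these tumours, or replicate 3 (-1.22) or 5 (-1.17) of the mixed-strain normals, removed the call. So did the median over probe sets (-1.13) and all normals as 1 group (-1.03). Its differences were -0.45 ± 0.46 in L858R+T790M and -0.35 ± 0.46 in T790M tumours.

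For collagen I, the main protein of interstitial fibres, the result depended on the probe set. Col1a2 at its brightest probe set was 11.99, 10.80, 11.94 and 11.03 in L858R tumours, 11.91, 10.76, 12.02, 11.67 and 12.67 in L858R+T790M tumours and 11.95, 10.44, 11.94, 11.43 and 12.31 in T790M tumours. Mixed-strain normals gave 12.62, 12.39, 12.80, 12.61 and 12.99, and FVB normals 12.08, 11.95, 12.30, 12.14 and 11.45. Read this way, Col1a2 fell by 1.24 ± 0.35 in L858R tumours (adjusted p = 0.0064) and differed by -0.18 ± 0.33 in L858R+T790M and -0.37 ± 0.33 in T790M tumours. At its second probe set Col1a2 differed by -0.33 ± 0.37 in L858R and 0.75 ± 0.34 in T790M tumours and was called higher in L858R+T790M tumours (1.06 ± 0.34, adjusted p = 0.020). The third and dimmest probe set was called lower in L858R (-1.13 ± 0.23) and T790M tumours (-0.55 ± 0.21, adjusted p = 0.047). Col1a1 differed by -0.43 ± 0.40, 0.75 ± 0.38 and 0.45 ± 0.38 in L858R, L858R+T790M and T790M tumours at its brightest probe set, with no call, and by 0.65 ± 0.36, 1.46 ± 0.34 (adjusted p = 0.0016) and 1.18 ± 0.34 (adjusted p = 0.0080) at the other. The p-values of single probe sets are adjusted over all probe sets annotated to 1 gene. The deposited values alone do not tell which probe set reads the transcripts best, and no direction is given for collagen I.

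**Figure D4:**
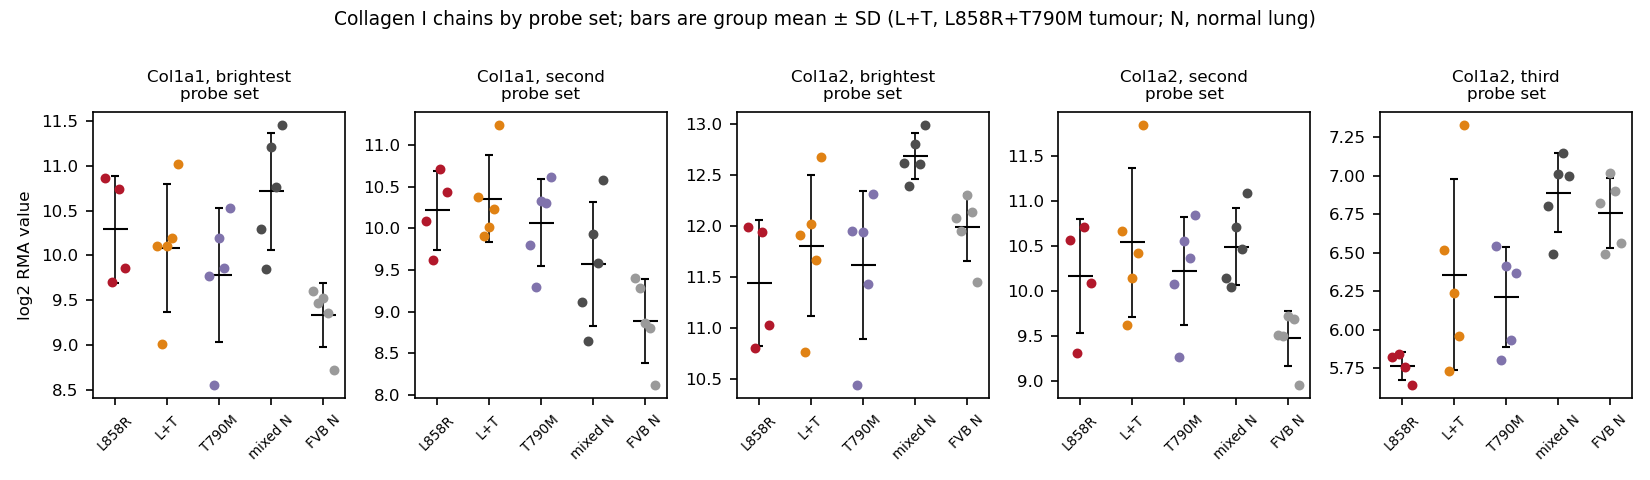
Log2 RMA value of each probe set of Col1a1 and Col1a2 in every array (points), with group mean ± SD, in L858R, L858R+T790M (L+T) and T790M tumours and in mixed-strain and FVB normal lungs (N). L858R+T790M tumours (9.91 to 11.24) lie above FVB normals (8.12 to 9.40) at the second probe set of Col1a1, while at the third probe set of Col1a2 the L858R tumours lie below all normal lungs.

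Collagen V regulates the width of collagen I fibres. Its minor chain Col5a3 rose by 0.66 ± 0.16 in L858R, by 0.56 ± 0.16 in L858R+T790M and by 0.60 ± 0.16 in T790M tumours (adjusted p = 0.0027, 0.0068 and 0.0038), with no overlap between the arrays. Its dimmer probe set differed by 0.11 ± 0.09, -0.03 ± 0.08 and -0.12 ± 0.08 and was not called, and with the median over both the T790M call was lost (0.24, adjusted p = 0.069). Col5a1 was called lower in L858R tumours (-0.46 ± 0.17, adjusted p = 0.037). Omitting replicate 2 (-0.41) or 4 (-0.44) of these tumours, or replicate 1 (-0.46), 3 (-0.44) or 5 (-0.41) of the mixed-strain normals, removed the call, and Col5a2 was not called in any tumour group. Col27a1, a fibrillar collagen best known from cartilage, fell by 0.64 ± 0.17 in L858R and by 0.53 ± 0.16 in L858R+T790M tumours and differed by -0.18 ± 0.16 in T790M tumours. Col11a2, a cartilage chain, rose by 0.39 in L858R+T790M tumours. Col24a1 rose by 0.22 ± 0.06 in T790M and by 0.15 ± 0.06 in L858R+T790M tumours, at a level among the lowest 0.3% of genes. The L858R+T790M call of Col24a1 was lost without any 1 of 7 arrays, with differences of 0.11 to 0.16. Col2a1 and Col11a1 were not called.

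Collagen VI builds beaded microfibrils around cells from the Col6a1, Col6a2 and Col6a3 chains. Col6a2 was 10.40, 10.55, 9.79 and 10.51 in L858R tumours, 9.64, 9.27, 10.45, 9.43 and 10.63 in L858R+T790M tumours and 9.92, 9.02, 10.12, 10.90 and 9.53 in T790M tumours. Mixed-strain normals gave 11.73, 11.64, 11.91, 11.71 and 12.07, and FVB normals 11.07, 11.15, 11.12, 11.06 and 10.49. L858R tumours were all below the mixed-strain normals, and FVB normal replicate 5 overlapped the other tumours. Col6a2 fell by 1.50 ± 0.30 in L858R (adjusted p = 0.00037), by 1.09 ± 0.28 in L858R+T790M (adjusted p = 0.0041) and by 1.08 ± 0.28 in T790M tumours (adjusted p = 0.0041).

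Col6a3, the largest chain of collagen VI, was 10.32, 9.78, 9.98 and 9.78 in L858R tumours, 9.88, 9.04, 10.51, 9.46 and 10.76 in L858R+T790M tumours and 10.33, 9.21, 10.27, 10.23 and 10.67 in T790M tumours. It was 11.26, 11.04, 11.48, 11.29 and 11.46 in mixed-strain normals and 10.43, 10.89, 10.86, 10.78 and 10.15 in FVB normals. Only the L858R tumours were separate from their normals, and Col6a3 fell by 1.34 ± 0.29 there (adjusted p = 0.00076), with differences of -0.69 ± 0.27 (adjusted p = 0.052) in L858R+T790M and -0.48 ± 0.27 (adjusted p = 0.17) in T790M tumours. The L858R+T790M difference became a call when replicate 3 (-0.84) or 5 (-0.90) of these tumours or replicate 5 of the FVB normals (-0.81) was omitted. Col6a1 differed by -0.07 ± 0.26 in L858R and 0.08 ± 0.25 in L858R+T790M tumours and was called lower in T790M tumours (-0.70 ± 0.25, adjusted p = 0.030), where every tumour, at 9.71 to 10.44, lay below the FVB normals, at 10.63 to 10.95. That call was lost without T790M replicate 2 (-0.58, adjusted p = 0.084) or FVB normal replicate 1, 2, 3 or 4 (-0.69 to -0.68, adjusted p 0.053 to 0.057). Col6a4 and Col6a5, minor chains, were not called.

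Collagen VIII is a short-chain network collagen of vessels made of Col8a1 and Col8a2, and its chains differed from each other in the tumours. Col8a2 was 5.90, 5.66, 5.30 and 4.98 in L858R tumours, 5.65, 5.11, 6.09, 5.11 and 5.42 in L858R+T790M tumours and 6.96, 5.25, 5.64, 5.14 and 6.23 in T790M tumours. Mixed-strain normals gave 8.02, 8.14, 7.42, 7.93 and 7.53, and FVB normals 7.78, 7.52, 7.41, 7.58 and 7.78. No tumour reached the normal range, and T790M replicate 1 came closest. Col8a2 fell by 2.35 ± 0.29 in L858R (adjusted p = 1.6e-06), by 2.14 ± 0.27 in L858R+T790M (adjusted p = 3.3e-06) and by 1.77 ± 0.27 in T790M tumours (adjusted p = 2.8e-05). Col8a1 was called higher in L858R tumours (0.63 ± 0.25, adjusted p = 0.04985). Omitting replicate 3 (0.38) or 4 (0.59) of these tumours, or replicate 1 (0.66), 2 (0.59), 3 (0.58) or 4 (0.62) of the mixed-strain normals, removed the call. It differed by -0.02 ± 0.24 in L858R+T790M and 0.43 ± 0.24 in T790M tumours. Col10a1, the collagen of hypertrophic cartilage, was not called.

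The fibril-associated collagens coat the surface of fibres. Col14a1, the mark of another matrix fibroblast class in mouse lung, was 7.93, 7.59, 7.89 and 7.40 in L858R tumours, 7.86, 7.62, 8.41, 7.69 and 7.57 in L858R+T790M tumours and 9.13, 7.92, 8.59, 10.74 and 8.62 in T790M tumours. It was 9.12, 9.45, 9.36, 9.58 and 9.29 in mixed-strain normals and 9.15, 8.82, 9.41, 9.28 and 9.09 in FVB normals. Col14a1 fell by 1.66 ± 0.34 in L858R (adjusted p = 0.00046) and by 1.32 ± 0.32 in L858R+T790M tumours (adjusted p = 0.0025), with no overlap, and its difference in T790M tumours was -0.15 ± 0.32 (adjusted p = 0.75). With the median over probe sets the L858R+T790M call was lost (-1.06, adjusted p = 0.070). Without T790M replicate 4 the T790M difference was called (-0.59, adjusted p = 0.024).

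That single tumour was high at every Col14a1 probe set. It read 11.02 at the second probe set, against 7.12 to 7.47 in its 4 group mates and 7.49 to 7.91 in FVB normals, and 7.58 at the third, against 5.79 to 5.95 in those 4 tumours and 5.91 to 6.31 in FVB normals. The same array had the lowest mean of the 8 fibroblast markers (7.66 in log2 units, against 8.20 to 9.91 in the other T790M tumours) and the highest Col18a1 (12.74). Col12a1, the closest relative of Col14a1, fell in L858R (-0.92 ± 0.23, adjusted p = 0.0032) and T790M tumours (-0.75 ± 0.22, adjusted p = 0.010) at its brightest probe set, but 1 of its 3 other probe sets was called higher in L858R tumours (0.33 ± 0.10), so its direction rests on the probe set. Col20a1 was called higher in L858R tumours at its brightest probe set (0.39 ± 0.08), but not with the median over its probe sets (0.17, adjusted p = 0.15). Col9a1, Col9a2, Col9a3, Col16a1, Col19a1 and Col22a1 were not called, and neither were Col7a1, the anchoring fibril collagen, and Col26a1. Over the 18 members without a call, differences ran from -0.43 to 0.21 in L858R, from -0.06 to 0.75 in L858R+T790M and from -0.14 to 0.45 in T790M tumours. Col1a1 gave -0.43, 0.75 and 0.45. Some of these 18 passed the threshold once 1 array was omitted. In L858R tumours this was so for Col7a1 (0.28 without replicate 4), Col22a1 (0.20 without replicate 1) and Col25a1 (0.23 without replicate 1, 0.20 without mixed-strain normal replicate 3). In L858R+T790M tumours it was so for Col1a1 (1.02) and Col5a2 (0.90) without replicate 2 and for Col16a1 (0.29) without replicate 4.

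**Figure D5:**
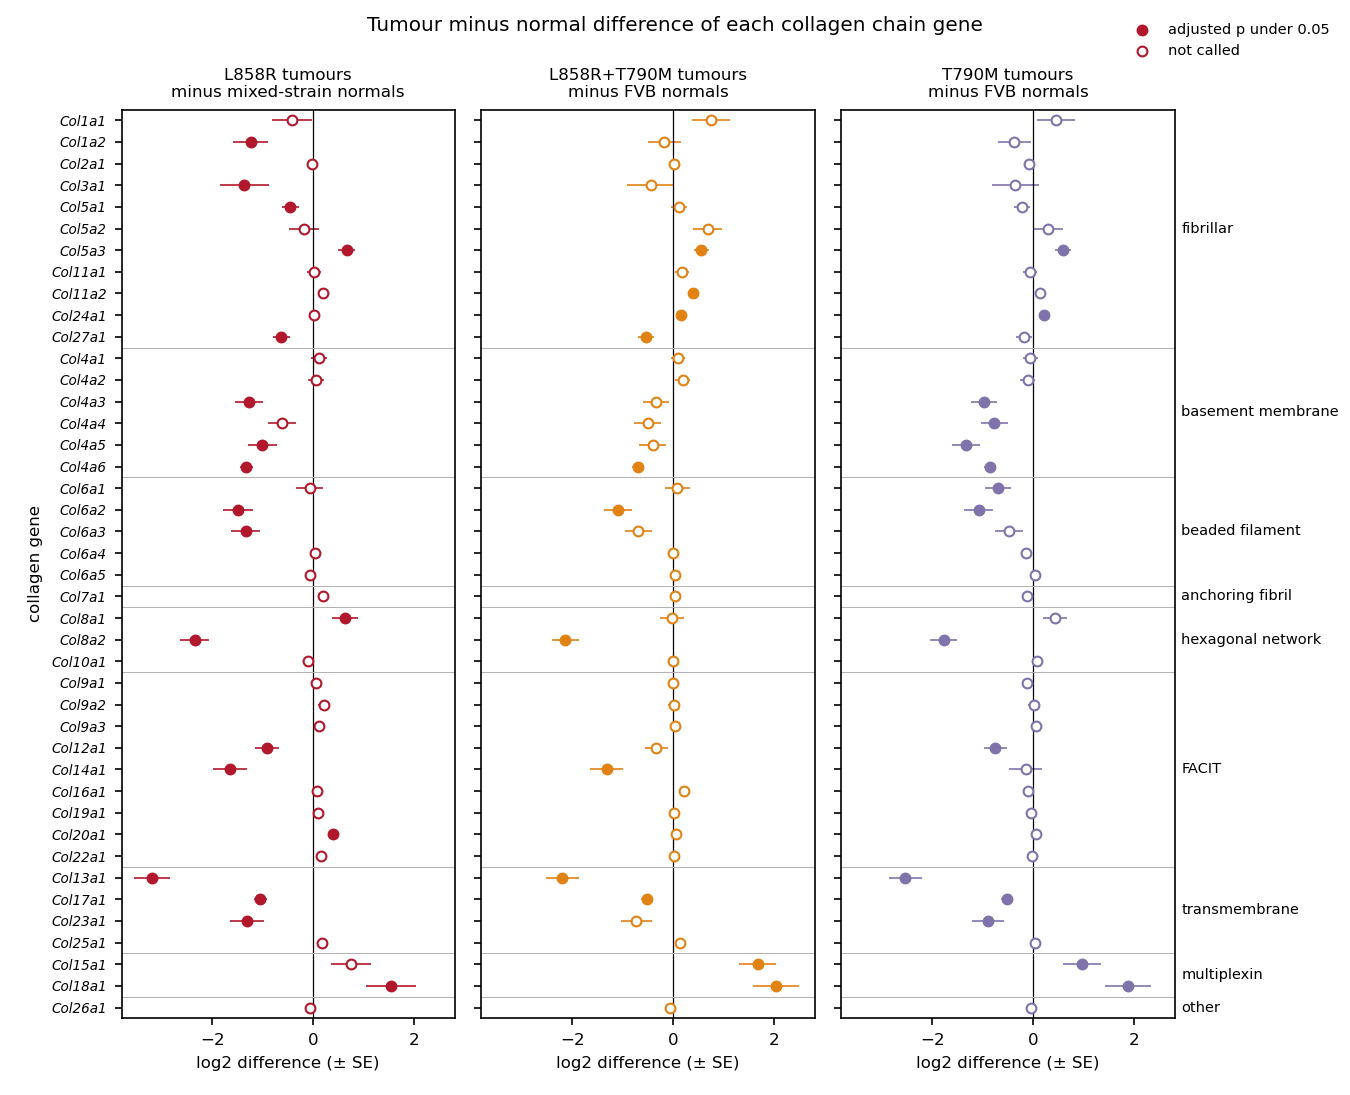
Log2 difference ± SE of each of 42 collagen chain genes in L858R tumours against mixed-strain normals and in L858R+T790M and T790M tumours against FVB normals, by collagen type, with filled points at an adjusted p under 0.05. Col13a1 has the largest falls (-3.20, -2.20 and -2.53) and Col18a1 the largest rises (1.54, 2.03 and 1.88).

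Several chain genes lie side by side in the genome, in the RefSeq gene order with no protein-coding gene between them, and some of these neighbours were discordant. Col4a1 and Col4a2 on chromosome 8, Col4a3 and Col4a4 on chromosome 1, Col4a5 and Col4a6 on chromosome X, Col6a1 and Col6a2 on chromosome 10, and Col3a1 and Col5a2 on chromosome 1 are such neighbours. On chromosome 10, Col18a1 is separated from Col6a1 by 2 protein-coding genes. In L858R tumours Col6a2 fell by 1.50, its neighbour Col6a1 differed by -0.07 and Col18a1 rose by 1.54. This varied by group, since in T790M tumours Col6a1 and Col6a2 were both called lower, with Col18a1 called higher.

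Partner chains were compared across arrays by the deviations of each array from its group mean, over 9 pairs and 24 arrays, with permutation p-values adjusted over the pairs. Col1a1 moved with Col1a2 (r = 0.916, rho = 0.813) and with Col3a1 (r = 0.883, rho = 0.826), Col4a1 with Col4a2 (r = 0.897, rho = 0.878), Col4a3 with Col4a4 (r = 0.895, rho = 0.902) and Col5a1 with Col5a2 (r = 0.865, rho = 0.867). The adjusted permutation p of these 5 pairs was at most 7.2e-05 for r and 0.00025 for rho. Their r was 0.867 to 0.969 within tumours (n = 14) and 0.813 to 0.952 within normals (n = 10), and 0.759 to 0.855 without the 2 farthest arrays. The 2 farthest arrays are those where the first chain of the pair deviated most. Col6a1 and Col6a2 correlated more loosely (r = 0.618, adjusted permutation p = 0.0013; rho = 0.710, adjusted permutation p = 0.0012), with an r of 0.563 without the 2 farthest arrays. Col4a5 and Col4a6 gave an r of 0.580 (adjusted permutation p = 0.018) and a rho of 0.463 (adjusted permutation p = 0.061). Their r was 0.300 without the 2 farthest arrays (adjusted permutation p = 0.22). Those arrays are extremes of Col4a5, and leaving out extremes of 1 chain can itself lower r. Col6a1 and Col6a3 gave an r of 0.413 and a rho of 0.431 (adjusted permutation p = 0.058 and 0.064). Col8a1 and Col8a2 did not covary (r = -0.032 and rho = -0.051, adjusted permutation p = 0.92 and 0.85). Only these 9 pairs were correlated, so whether a high r is particular to them was not tested.

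Unequal change of partners was also tested directly, as the log2 value of 1 chain minus its partner within each array, in 45 exact two-sided permutation tests that were added after the values had been seen. The smallest p these tests can give is 0.0079, and 23 had an adjusted p under 0.05. Not all of these 23 set tumours against normals. Mixed-strain and FVB normals differed in Col1a1 minus Col1a2 (0.68), Col1a1 minus Col3a1 (0.70) and Col4a3 minus Col4a4 (0.63). They also differed in Col4a5 minus Col4a6 (0.52), Col4a1 minus Col4a2 (-0.24) and Col6a1 minus Col6a2 (-0.22). L858R+T790M and T790M tumours differed in Col4a3 minus Col4a4 (0.36) and Col6a1 minus Col6a3 (0.99). Col8a1 minus Col8a2 was larger by 2.98 in L858R tumours than in mixed-strain normals, and by 2.11 in L858R+T790M and 2.20 in T790M tumours than in FVB normals (exact permutation adjusted p = 0.027 each). Col6a1 minus Col6a2 was larger by 1.43 in L858R and 1.18 in L858R+T790M tumours (exact permutation adjusted p = 0.027 each), and by 0.38 in T790M tumours (adjusted p = 0.29). With the median over the probe sets of each gene these values were 3.07, 2.16 and 2.03 for collagen VIII and 1.27, 1.00 and 0.24 for collagen VI. Col8a2 and Col6a1 have 1 probe set each, so the median varied only their partners. Col1a1 minus Col3a1 was larger by 0.94 in L858R, 1.20 in L858R+T790M and 0.80 in T790M tumours. With the median it was larger by 1.24, 1.43 and 0.99. For collagen I the difference was probe set dependent, since Col1a1 minus Col1a2 was larger by 0.93 in L858R+T790M tumours at the brightest probe sets and by 0.04 with the median over probe sets.

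Normal lungs of the 2 strain labels differed in collagen values too, which bears on the L858R comparison. In the fit to all 24 arrays 0 members were called between mixed-strain and FVB normals by limma, beside 1.04% of all genes. When the 10 normal lungs were fitted alone, 11 members were called higher and 1 lower in mixed-strain normals, beside 6.86% and 4.35% of all genes. Col1a1 was higher by 1.38 ± 0.29 (adjusted p = 0.015), Col4a3 by 0.99 ± 0.21 (adjusted p = 0.017), Col6a2 by 0.83 ± 0.13 (adjusted p = 0.0057) and Col13a1 by 0.76 ± 0.19 (adjusted p = 0.031). The Col1a1 value is that of its brightest probe set. At the other Col1a1 probe set, mixed-strain normals (8.65 to 10.58) overlapped FVB normals (8.12 to 9.40). Col1a2, Col4a5, Col6a1, Col6a3, Col15a1, Col17a1 and Col23a1 were higher by 0.25 to 0.72, and Col25a1 was lower by 0.22. Arrays did not overlap for 8 members that were higher and 2 that were lower, beside 6.08% and 4.31% of all genes. As a sign of RNA quality, the log2 signal of Gapdh read near its 3-prime end minus that near its 5-prime end was lower by 0.11 in mixed-strain than in FVB normals (exact permutation p = 0.0079, adjusted p = 0.040 over 5 tests), and its part was not tested. Strain label and sample set cannot be told apart in these normals.

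Between tumour groups few collagen differences stood out. L858R+T790M and T790M tumours, which share a strain label, had 0 members called by limma, beside 1.59% of all genes. Col14a1 was lower by 1.17 ± 0.32 in L858R+T790M than in T790M tumours (adjusted p = 0.065), Col4a5 was higher by 0.92 ± 0.27 (adjusted p = 0.088) and Col6a1 by 0.78 ± 0.25 (adjusted p = 0.11). Col14a1 was called without L858R+T790M replicate 3 (-1.32) or T790M replicate 2 (-1.44), Col4a5 without T790M replicate 1 (1.14), and Col16a1 without L858R+T790M replicate 4 (0.39). After subtraction of their normals, L858R tumours had 0 members called by limma against L858R+T790M tumours and 0 against T790M tumours, beside 0.0715% and 0.418% of all genes. Compared directly, across strain labels, L858R tumours were higher than T790M tumours in Col6a1 (1.24 ± 0.26, adjusted p = 0.0097) and Col4a5 (1.04 ± 0.29, adjusted p = 0.038). They were lower in Col14a1 (-1.30 ± 0.34, adjusted p = 0.029) and Col24a1 (-0.27 ± 0.06, adjusted p = 0.017). Both Col14a1 differences from T790M tumours include T790M replicate 4, at 10.74 against 7.92 to 9.13 in the other T790M tumours. The direct comparison was not run without that array. In this direct comparison 3.63% of all genes were called higher and 2.32% lower. Against L858R+T790M tumours 2.46% of all genes were called, and Col11a2 alone differed, lower in the L858R group (-0.35 ± 0.09, adjusted p = 0.035).

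The genes of collagen modification and processing changed in both directions, while no partner of collagen IV was called higher. These counts, and those of the cell type markers, stand beside the shares of all genes given above, 23.3%, 20.2% and 21.9% higher and 18.1%, 16.1% and 17.9% lower in L858R, L858R+T790M and T790M tumours. Of 20 measured genes of collagen modification and folding, 8 were higher and 5 lower in L858R, 7 and 4 in L858R+T790M, and 6 and 5 in T790M tumours, which is 40%, 35% and 30% higher and 25%, 20% and 25% lower. Creb3l1, a membrane-bound transcription factor that drives collagen I genes in bone, rose by 1.16 in L858R, 0.95 in L858R+T790M and 2.24 in T790M tumours, and was lower by 1.29 ± 0.27 in L858R+T790M than in T790M tumours (adjusted p = 0.018). Plod2, the lysyl hydroxylase that sets the kind of collagen crosslink, had the largest fall of this list (-2.16, -1.35 and -1.52). Ppib and P4hb, which fold and hydroxylate procollagen in the endoplasmic reticulum, rose by 0.29 to 0.39 and by 0.48 to 0.66.

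Of 9 measured genes of procollagen processing and crosslinking, 1 was higher and 4 lower in L858R, 1 and 3 in L858R+T790M, and 1 and 5 in T790M tumours (11.1% higher in each, and 44.4%, 33.3% and 55.6% lower). The gene that rose was Bmp1, the proteinase that removes the procollagen tail (1.74, 2.01 and 1.29), and it was higher by 0.72 ± 0.18 in L858R+T790M than in T790M tumours (adjusted p = 0.049). Pcolce2 and Pcolce, which enhance that cleavage, both fell in each tumour group. Pcolce2 fell by 5.25 in L858R, fell by 4.63 in L858R+T790M and fell by 4.53 in T790M tumours. Of 9 measured receptors 4 (44.4%) were lower in each tumour group. Among them were Ddr2, a receptor kinase for fibrillar collagen (-2.55, -2.02 and -1.37), and Itga1, an integrin chain that binds collagen IV (-1.76, -1.70 and -1.42). Ddr1, the epithelial relative of Ddr2, was the 1 receptor called higher, in L858R tumours (0.52). Of 6 partners of collagen IV, 3 (50%) were lower in L858R, 2 (33.3%) in L858R+T790M and 4 (66.7%) in T790M tumours. Pxdn, the peroxidase that crosslinks collagen IV, fell by 2.48, 2.29 and 2.01, and Nid1, which links collagen IV to laminin, fell by 1.25, 0.98 and 0.62.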

How the data were processed

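The deposited values are log2 summaries per probe set for 24 arrays. Per the submitters' processing notes the authors used RMA, whose version is not given in the sources used here. Array medians lay between 7.21 and 7.34, and no further normalization was applied. The platform annotation gave 1 gene to 34945 of 45101 probe sets. The brightest probe set on average over the 24 arrays stood for each of 18193 genes, and 27 of the 42 collagen genes had several, 82 probe sets in all. Arrays hold no counts, so the number of arrays limits the precision. The linear model held 5 group means (limma 3.58.1 under R 4.3.3, eBayes with trend, 19 residual degrees of freedom), and tests were two-sided, with Benjamini-Hochberg adjustment over all genes of a comparison. Because the labels do not say that arrays are separate mice, p-values reflect only how much these samples vary, which may be technical. The reported fit did not use replicate numbers to pair the samples.

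Values in every array are given for the 14 members called with a log2 difference of at least 1 in size in a tumour-normal comparison. The members and all gene lists were chosen with earlier results of these data known. Other single arrays, probe sets and groups discussed were chosen after their values were seen. The alternatives were median centring, the median over probe sets, omission of the dimmest genes, no trend, array weights, only the groups compared, the replicate number as a block, all normals as 1 group, the direct difference between tumour groups, and each array left out. Within-array partner differences, the fit to normals alone and the direct tumour differences per gene were chosen after seeing the data. The fitting code was checked on simulated data.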

Additional observations from a re-analysis of the deposited data

Results flagged for a closer look

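Of 70 groups of arrays examined for the 14 members given in every array, 3 held an array set apart from the rest of its group by a gap that was large against the group's range, and chance sets apart about 1 in 20 groups. Col15a1 was 7.72 in T790M replicate 1, against 8.53 to 8.83 in the other T790M tumours. Col4a5 was 9.11 in L858R+T790M replicate 2, against 9.64 to 9.81 in the other tumours of that group. Col6a2 was 10.49 in FVB normal replicate 5, against 11.06 to 11.15 in the other FVB normals. The same FVB normal had the lowest Col1a1 (8.72), Col1a2 (11.45) and Col3a1 (11.60) of its group.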

How the results depend on the processing

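Of 46 calls of a member in the tumour-normal comparisons, 30 held under every alternative run, 9 were lost when some single array was left out and 12 under another alternative, some of them under both. For members with 1 probe set, such as Col13a1, Col8a2 and Col17a1, the median over probe sets is the same value. That alternative could not test their calls, and omission of the dimmest genes removed Col8a2 and Col17a1. With arrays centred on their medians, 7 members were higher in L858R tumours (4 in the fit as reported). Without the dimmest genes, which removes dim members, 3 were higher in L858R+T790M tumours (5), and with all normals as 1 group 13 were lower there (7). The direct difference gave 1 call between L858R and L858R+T790M tumours and 4 between L858R and T790M tumours (0 each with normals subtracted). Between mixed-strain and FVB normals, array weights gave 11 calls and a fit to those arrays alone 12 (0). With the median over probe sets Col1a2 was higher in L858R+T790M tumours (1.06, adjusted p = 0.020; -0.18 at the brightest), the second probe set setting that value, and Col1a1 too (1.11), while Col12a1 was called in no tumour group. All normals as 1 group also removed the L858R calls of Col5a1 (-0.33) and Col8a1 (0.47), and centring that of Col5a1 (-0.40). The causes of the other shifts were not tested. Col4a5 and Col4a6 gave r = 0.30 without the 2 farthest arrays.

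Leaving out single arrays gave 2 to 6 members higher and 13 to 16 lower in L858R tumours (2 without L858R replicate 3), 4 to 6 and 7 to 9 in L858R+T790M tumours, 3 to 4 and 8 to 11 in T790M tumours, 0 to 1 between L858R+T790M and T790M tumours, and 0 to 1 between the normal sets (1 without mixed-strain normal replicate 4). The Gapdh difference of L858R tumours from mixed-strain normals, 0.11 (exact permutation p = 0.032, adjusted p = 0.079), was 0.082 to 0.139. Samples with the same replicate number did not deviate together in every pair (r of -0.28 to 0.44). Between L858R+T790M and T790M tumours r was 0.003 for replicate 1 and 0.208 to 0.44 for the others. Samples with different numbers were not compared, so whether a number marks paired samples was not tested. With the replicate block, 2 members were called between the normal sets (0), L858R+T790M tumours had 7 higher (5) and 8 lower (7), and the other counts were the same as without it.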

Other observations

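Other cell type markers were measured beside the collagens. Club cell markers were lower for 3 of 3 genes in L858R, 3 of 3 in L858R+T790M and 2 of 3 in T790M tumours, and all 4 ciliated cell markers were lower in each tumour group. Cartilage markers were lower for 1, 2 and 2 of 8 genes and higher for none. Macrophage markers were higher for 3 of 4 genes in L858R, 1 of 4 in L858R+T790M and 0 of 4 in T790M tumours. T cell markers were lower for 3 of 4 genes and B cell markers for 2 of 2 in each tumour group. Mesothelial markers were lower for 4, 2 and 4 of 5 genes, and 1 was higher in L858R+T790M tumours. Of 2 measured Schwann cell markers 1 was higher in L858R tumours.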
